A study of Caenorhabditis elegans with 4 samples.

Results

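The MAB-5 regions of chromosome II were taken as every entry of the authors' combined list that lies on that chromosome, 347 of 2261 regions (15.3%). MAB-5 was mapped by chromatin immunoprecipitation and sequencing (ChIP-seq) in whole *Caenorhabditis elegans* hermaphrodites of strain OP27 at the second larval stage, L2, grown at 20 °C. The worms carried the unc-119(ed3) mutation and the transgene wgIs27, introduced by bombardment, which holds mab-5 fused to TY1, EGFP (a green fluorescent protein, GFP) and FLAG tags together with a copy of unc-119. The genotype lists no mab-5 mutation, so the tagged protein was made beside that of the chromosomal gene, and the labels state that it followed the normal mab-5 expression pattern. The series had 2 ChIP samples, precipitated with anti-GFP antibodies after crosslinking in 2% formaldehyde, and 2 input samples of the same genotype and stage, and all 4 shared the alleles above. Only lists of the ChIP samples were analysed here.

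MAB-5 belongs to the Hox family of homeodomain transcription factors and patterns the posterior body of the worm. It is known for sending the descendants of the QL neuroblast towards the tail and for directing posterior epidermal and mesodermal cells to their fates. Hox proteins bind short AT-rich sites, often together with partner homeodomain proteins, and a ChIP-seq region marks a stretch of chromatin that was recovered with the protein and not a single site. MAB-5 is made mainly in posterior cells, so a region measured in whole worms sums binding over cells of many kinds. No annotation or sequence of the build of these lists, WormBase WS180, was used here. Regions are therefore named by their position on that build, and no gene or sequence is given for them.

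Each region carried a q value from the authors' peak caller and no read count, height or fold enrichment. Strength below is −log10 of that q value, which grows with significance and depends on depth as well as on binding. Sequencing depth is unknown. The chromosome II regions had a median width of 402 bp (interquartile range 331 to 564 bp), against 422.5 bp (338 to 599 bp) for the 1914 regions of the other 5 chromosomes. Their median strength was 6.57 (interquartile range 4.71 to 10.1), against 6.44 (4.71 to 10.6) elsewhere. In these medians and quartiles chromosome II lay close to the rest of the list. Its highest strength was 57.4, against 241 over the larger number of regions on the other chromosomes. Of the 10 strongest regions of the series 0 lay on chromosome II. Of the 50 strongest of the series 7 were on chromosome II, of the 100 strongest 10 and of the 200 strongest 32. The chromosome held 15.3% of all regions, and these counts were not tested against that share.

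The 10 strongest MAB-5 regions of chromosome II stood in all 3 lists, and in replicate 1 they were weaker with 1 exception. For all 10 the replicate 2 list repeated the coordinates and the q value of the combined list exactly, so the replicate 2 values below are those of the combined list and not a separate measurement. The strongest lay at 5844547 to 5845234, with q = 3.85e-58 in the combined list and a smallest q of 8.57e-24 in replicate 1. It ranked 20 in the series. Next came 5543291 to 5544400 (q = 9.68e-48, and 1.08e-18 in replicate 1) and 5660915 to 5662474 (q = 1.49e-47, and 1.74e-22 in replicate 1). These 3 regions, the only ones on chromosome II with a strength over 40 in the combined list, lay within 0.302 Mb. The region ranked 4 was at 6707354 to 6708202, with q = 3.75e-39 against 2.66e-15 in replicate 1. Rank 5 was narrow, 375 bp from 10563300 to 10563674, with q = 6.81e-38 and 7.56e-20 in replicate 1. Ranks 6 and 7, at 9264563 to 9265675 and 6838134 to 6839320, had q values of 2.85e-36 and 6.02e-36, and in replicate 1 of 3.75e-15 and 6.84e-19. Ranks 5 and 7 belonged to dense runs described below. Rank 8, at 8184929 to 8185305, had q = 5.37e-35 and 5.16e-16 in replicate 1, and rank 10, at 2973621 to 2974609, had q = 3.69e-28 and 2.58e-12. Leaving out rank 9, replicate 1 strengths of the 10 were between 11.6 and 23.1, or 0.379 to 0.516 times those in the replicate 2 list.

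**Figure D1:**
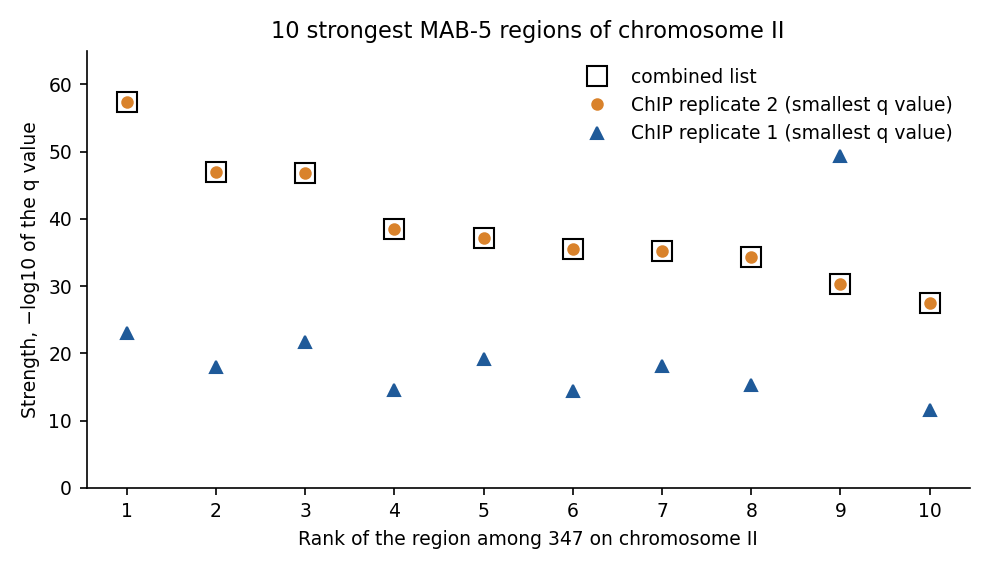
Strength, −log10 of the q value, of the 10 strongest MAB-5 regions of chromosome II by rank, in the combined list (open squares), in ChIP replicate 2 (circles) and in ChIP replicate 1 (triangles). Squares and circles coincide at every rank, and only at rank 9 does the triangle, at 49.3, lie above the other symbols.

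Rank 9 was the region at 8418786 to 8421546, 2761 bp wide, and it stood out in replicate 1. Its q value was 4.20e-31 in the combined list and in replicate 2, where it was a single entry. In replicate 1 it was listed at 8418699 to 8421554 with q = 5.32e-50, rank 3 among all entries of that replicate and first on chromosome II. A further replicate 1 entry had exactly the coordinates of the combined region, 8418786 to 8421546, and a q value of 4.95e-27. Its strengths were thus 49.3 and 26.3 in replicate 1 and 30.4 in replicate 2. It was singled out after its values were seen. On the other chromosomes 12 of 623 regions paired between the replicate lists were also stronger in replicate 1.

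On chromosome II replicate 1 had 150 entries, or 117 distinct regions (60560 bp) after overlapping entries were joined, and replicate 2 had 407 entries, or 335 distinct regions (180496 bp). The chromosome thus made up 15.4% of the distinct regions of replicate 1 and 15.3% of those of replicate 2. Of the 347 combined regions, 304 (87.6%) were identical in coordinates and q value to a replicate 2 entry and 0 to a replicate 1 entry. Support from replicate 2 is therefore no independent evidence for a combined region, and the presence of a region in both lists turns on replicate 1. Regions with a replicate 2 counterpart but no identical entry all lay between 4 and 5 Mb or between 12 and 13 Mb. From 4 to 5 Mb this held for all 21 regions. Identical entries were not counted on the other chromosomes, so neither the share nor these places can be called particular to chromosome II.

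Of the chromosome II regions, 114 overlapped entries of both replicate lists by at least 1 bp, or 32.9% (exact Clopper-Pearson 95% interval 27.9 to 38.1%). The background over all 2261 combined regions was 32.9%, and the other chromosomes held 629 of 1914 (32.9%, 30.8 to 35.02%). The difference of -0.010 percentage points had an adjusted p of 1 in a two-sided Fisher exact test with Benjamini-Hochberg adjustment over 6 chromosomes. Another 221 (63.7%, 58.4 to 68.8%) had a counterpart in replicate 2 but not in replicate 1, and 12 (3.46%, 1.80 to 5.96%) had none in any replicate list. Both shares were close to those elsewhere, 1215 of 1914 (63.5%) and 68 of 1914 (3.55%). The reverse, a counterpart in replicate 1 but not in replicate 2, occurred in 0 regions of chromosome II. These 12 were the weakest of the chromosome, with q values from 0.000153 to 0.000188, all above the largest replicate 2 q value on the chromosome, 0.000148. Regions are not independent replicates, and the labels do not say that the replicates were separate cultures, so these p-values describe differences between lists only.

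Which chromosome II regions replicate 1 held went with strength. The median strength was 13.05 for the 114 regions in both lists and 5.23 for the 221 in replicate 2 alone, and the median widths were 473 and 373 bp. Replicate 1 held each of the 50 strongest regions of the chromosome and 86 of the 100 strongest. When the whole combined list was divided by strength into 5 equal groups, 0 of 68 chromosome II regions of the weakest group were in both lists (exact upper limit 5.28%), against 6 of 385 (1.56%) elsewhere. The counts were 2 of 71 (2.82%) in group 2, 11 of 70 (15.7%) in group 3 and 38 of 73 (52.1%) in group 4, against 5.25%, 12.6% and 49.9% elsewhere. In the strongest group 63 of 65 chromosome II regions were in both lists (96.9%, 89.3 to 99.6%), against 366 of 387 elsewhere (94.6%, 91.8 to 96.6%). The intervals of chromosome II and of the rest overlapped in all 5 groups.

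The strongest chromosome II region missing from replicate 1 was at 9059750 to 9062512, with q = 4.16e-15 and rank 51. It was also the widest region of the chromosome, at 2763 bp, only 2 bp wider than the region that was strongest in replicate 1. The next missing regions were at 512640 to 513039 (q = 1.90e-14) and 7151952 to 7152278 (q = 3.36e-12). Seen from the replicate lists, 114 of the 335 distinct replicate 2 regions on chromosome II were found in replicate 1, or 34.03% (28.97 to 39.4%), where the background over 2187 regions was 34.0%. The rest of the series had 629 of 1852 (33.96%), and the adjusted p was 1 in the two-sided Fisher exact test. In the other direction 115 of 117 distinct replicate 1 regions were found in replicate 2 (98.3%, 93.96 to 99.8%), with a background of 99.2%, against 637 of 641 elsewhere (99.4%).

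The 2 replicate 1 regions without a replicate 2 counterpart were neighbours, at 7779291 to 7779844 (q = 1.51e-05) and 7780206 to 7781209 (q = 6.40e-07). Nothing in the combined list lay near them on chromosome II, the nearest region being 32440 bp from the first and 31075 bp from the second. Their numbers fall within those of the strongest replicate 1 entry on chromosome III inside the series' strongest region, at 7779116 to 7781211 (q = 1.37e-45), and the ends 7781209 and 7781211 nearly coincide. Whether these entries carry the right chromosome name was not tested.

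Many strong regions of chromosome II were entered in a replicate list as a pair of overlapping entries, a stronger one and a weaker one. In replicate 1, 33 of the 117 distinct regions (28.2%) were such pairs, and in replicate 2, 72 of 335 (21.5%). The shares on the other chromosomes were 28.9% and 20.95%. The weaker entry lay inside the stronger or had the same ends in 31 of 33 pairs of replicate 1 and in 68 of 72 of replicate 2. Median strengths of the stronger and the weaker entry were 10.1 and 5.34 in replicate 1, and 16.9 and 5.69 in replicate 2. In replicate 2 the stronger entry was identical to a combined region in 67 of the 72 pairs, whereas in replicate 1 this was so in 0 of 33.

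Pairs of entries present in both replicate lists numbered 28, and with like entries set side by side replicate 1 was lower in most of them. The stronger entry had a median strength of 10.1 in replicate 1 and 23.1 in replicate 2, and was lower in replicate 1 in all 28. The weaker entry had medians of 4.93 in replicate 1 and 7.84 in replicate 2, and was higher in replicate 1 in 3 of 28. When the stronger entry of replicate 1 was set against the weaker entry of replicate 2, replicate 1 was higher in 21 of 28. That choice of entries favours replicate 1 by construction, so it cannot show the order of the replicates. The sources used here do not say how the lists came to hold both kinds of entry, and none of these orders measures a weaker or stronger replicate.

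Over 113 pairs of distinct chromosome II regions that overlapped each other and no other region, strengths in the 2 replicate lists went together. Pearson's r was 0.738 and Spearman's rho 0.832. Without the region at 8418786, the pair whose replicate 1 strength was the higher, r was 0.929 and rho 0.828 over 112 pairs, so that single region set the low r. Over the 623 pairs of the other chromosomes r was 0.949 and rho 0.795. The replicate 1 strength was the lower in 112 of the 113 pairs, against 611 of 623 elsewhere, where 12 pairs were higher in replicate 1. The median ratio of replicate 1 to replicate 2 was 0.478 (interquartile range 0.406 to 0.604), against 0.497 elsewhere. The pair at 8418786 had a ratio of 1.62, and the next highest ratio on the chromosome was 0.886. The highest ratio elsewhere was 1.75, on chromosome IV. These pairs are points of the same libraries, and most replicate 2 values also stand in the combined list, so the correlations are descriptions without a test.

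**Figure D2:**
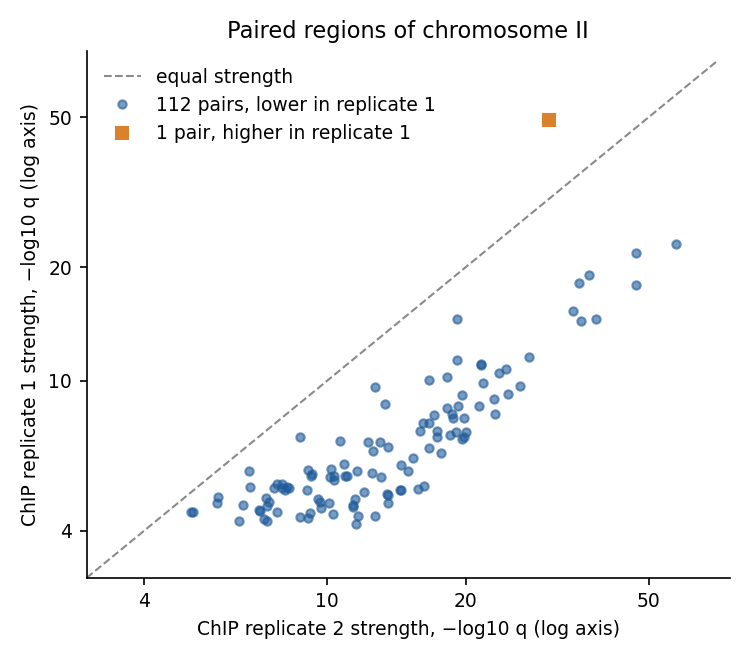
Strength of 113 paired regions of chromosome II in ChIP replicate 1 (vertical axis) against ChIP replicate 2 (horizontal axis), both as −log10 of the q value on log axes, 1 point per pair. The dashed line marks equal strength, and all but 1 pair lie under it, the exception having 49.3 in replicate 1 and 30.4 in replicate 2.

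Along the chromosome MAB-5 regions were unevenly placed, with most in the middle and a sparse stretch from 1 to 4 Mb. The lists spanned bases 24316 to 15232960, and the combined list held 22.8 regions per Mb of this span, within the range of the other chromosomes, 18.5 on V to 29.3 on III. The window from 6 to 7 Mb held the most regions, 49, of which 21 were in both replicate lists. The window from 9 to 10 Mb followed with 34 and that from 5 to 6 Mb with 31. The 2 Mb between 5 and 7 Mb thus held 80 regions (23.1%), including 5 of the 10 strongest. By contrast the 3 Mb between 1 and 4 Mb held 27, among them the region ranked 10. The longest stretch with no combined region, 765314 bp between 1523444 and 2288759, lay there, and it held 0 entries of the replicate lists. It was also the longest such stretch of the series, with 762741 bp the longest elsewhere. On chromosome II the next longest was 374266 bp, between 760546 and 1134813.

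**Figure D3:**
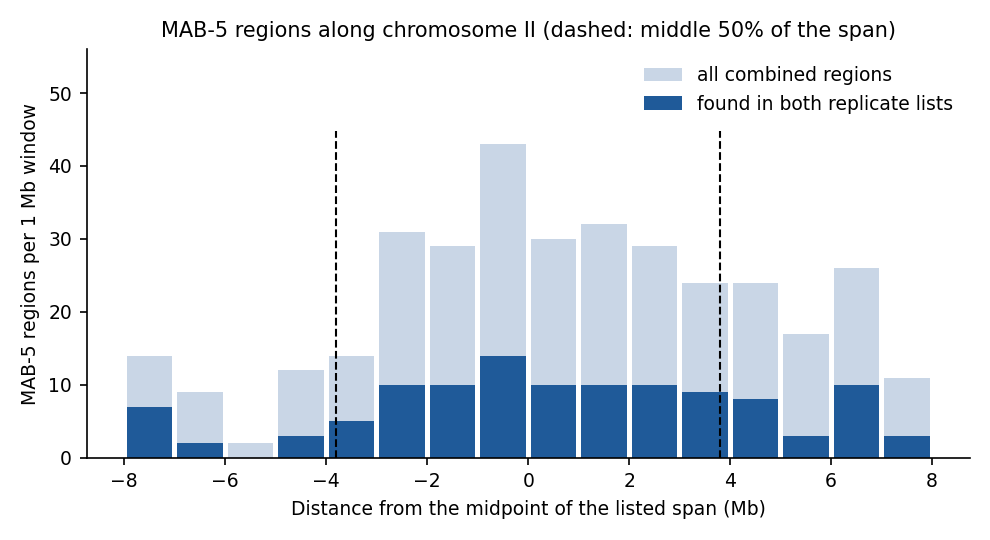
Number of combined MAB-5 regions of chromosome II in windows of 1 Mb (vertical axis) by distance from the midpoint of the listed span in Mb (horizontal axis), with regions in both replicate lists in dark blue. Dashed lines bound the middle 50% of the span, which held 225 of the 347 regions, and the highest bar, 43 regions, lies just left of the midpoint.

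The middle 50% of the span, from 3.83 to 11.4 Mb, took in the centres of 225 of the 347 regions, or 64.8% (59.6 to 69.9%), where the background over all chromosomes was 60.2%. The other 4 autosomes had 940 of 1515 (62.05%, 59.5 to 64.5%). The difference was 2.80 percentage points (Fisher exact test, two-sided, p = 0.356), so chromosome II was not detectably more centred than the other autosomes. Under 3 of the alternatives the same test gave a p under 0.05, with differences of 6.10 to 10.5 percentage points. Of the 10 strongest regions 9 lay in the middle. Regions inside and outside the middle had median strengths of 6.55 and 6.87, and 33.8% and 31.1% of them were in both replicate lists.

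Neighbouring regions of chromosome II were separated by a median gap of 20157.5 bp (interquartile range 4628 to 56662 bp), against 24566 bp (5680 to 56559 bp) elsewhere. The gap was at most 5000 bp in 94 of 346 neighbouring pairs, or 27.2% (22.5 to 32.2%), with a background of 24.2%. On the other chromosomes it was so in 451 of 1909 (23.6%, 21.7 to 25.6%). The difference of 3.54 percentage points had an adjusted p of 0.344 in the two-sided Fisher exact test over 6 chromosomes. A higher frequency of short gaps on chromosome II was thus not detectable. When regions with gaps of at most 5000 bp were joined, 198 stayed alone, 41 groups had 2 regions, 9 had 3, 2 had 4, and the last 3 groups had 7, 9 and 16.

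These 3 groups, the dense runs of at least 5 regions, held 32 of the 347 chromosome II regions, or 9.22% (6.39 to 12.8%), where the background over the series was 4.02%. The other chromosomes had 59 of 1914 regions in 9 runs, or 3.08% (2.35 to 3.96%). The difference of 6.14 percentage points had an adjusted p of 5.00e-06 in the two-sided Fisher exact test over 6 chromosomes. An excess was not particular to chromosome II. Chromosome III, with 30 of 402 regions in runs (7.46%), also exceeded its rest (two-sided Fisher exact test, adjusted p = 0.000731). The pooled share of the other chromosomes further took in 2.92% on IV, 3.12% on V, 1.25% on X and 0 of 317 regions on I. The limits of a run and the test above were chosen with earlier results of these data known. The run of 16 was the largest of the series, and 2 alternatives, also chosen after the data had been seen, left out large runs. Without the run of 16, chromosome II had 16 of 331 regions in runs (4.83%), and the difference of 1.75 percentage points from the other chromosomes with all their runs had an adjusted p of 0.1999. Without the largest run of each chromosome, 16 of 331 regions of chromosome II and 30 of 1885 elsewhere were in runs, a difference of 3.24 percentage points with an adjusted p of 0.00117 (same exact test). Regions of a run are not independent, and a run weighs by its length, so the test of regions overstates its precision. Counted as runs, chromosome II held 3 of 12, chromosome III 4, IV and V 2 each, X 1 and I 0.

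**Figure D4:**
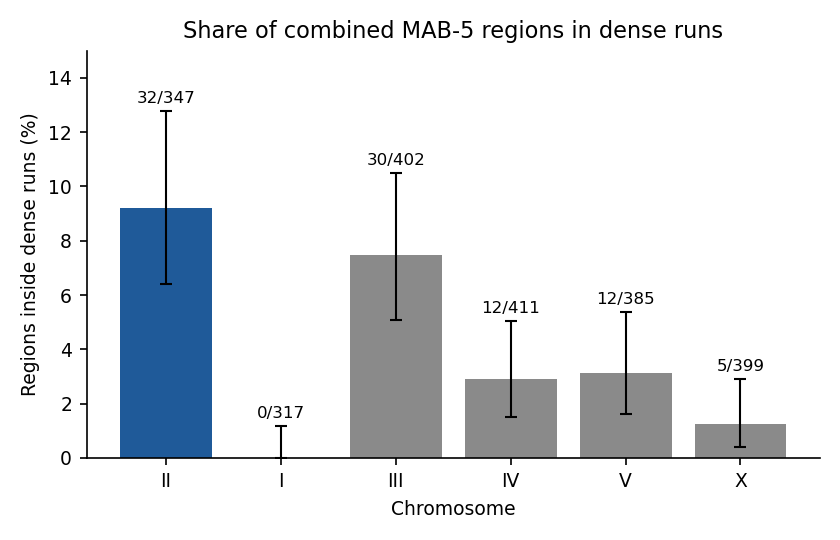
Percent of combined MAB-5 regions inside dense runs for chromosome II (blue) and the other 5 chromosomes (grey), with exact 95% intervals as error bars and the counts above. Chromosome II is highest at 9.22%, with an interval that overlaps that of chromosome III at 7.46%.

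The largest run lay at 6820322 to 6849650, where 16 regions in 29.3 kb covered 32.7% of the bases, with a median gap of 850 bp. Its 8 regions in both replicate lists had strengths from 7.35 to 35.2, and the 8 in replicate 2 alone from 3.91 to 8.31. It had 1 dominant region, rank 7 of the chromosome at 6838134 to 6839320 (q = 6.02e-36, and 6.84e-19 in replicate 1). To its left stood 8 regions within 7.43 kb, at 6820322 to 6827748, each at most 850 bp from the next. Among these the leading ones were 6823113 to 6823556 (q = 1.36e-20, and 1.13e-08 in replicate 1) and 6825672 to 6826128 (q = 2.80e-14, and 2.05e-07 in replicate 1). The other 2 with a strength over 10 were at 6820959 to 6821602 (q = 2.88e-13, and 2.10e-06 in replicate 1) and 6822255 to 6822632 (q = 6.12e-11, and 1.51e-06 in replicate 1). Strong and weak regions were interleaved over these few kilobases. To the right of the dominant region the widest of the run, 1808 bp at 6842452 to 6844259, had q = 4.86e-11 but only 3.67e-05 in replicate 1. With gaps of at most 2000 bp this run split into runs of 8 and 5 regions, the only dense runs left on the chromosome. In replicate 1 alone it was still a run, of 5 regions at 6820959 to 6827728, the only one on the chromosome in that list.

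The run at 10537911 to 10563674 had 9 regions in 25.8 kb, fewer and wider, with 36.2% of the bases covered and a median gap of 2172 bp. Its 6 regions in both lists had strengths from 5.77 to 37.2, and the 3 in replicate 2 alone from 4.26 to 5.40. The strongest was the last, rank 5 of the chromosome at 10563300 to 10563674. Near the other end stood a region of 2456 bp, at 10541834 to 10544289 (q = 6.65e-24, and 7.08e-09 in replicate 1), separated by 232 bp from a weak region of 1801 bp, at 10544522 to 10546322 (q = 3.97e-06), that replicate 1 did not hold. Between them and the strongest lay 10558356 to 10559327 (q = 3.40e-19, and 6.66e-08 in replicate 1) and 10548367 to 10549436 (q = 1.84e-13, and 2.25e-10 in replicate 1). At 10548367 the strengths of the 2 lists lay closer together than in the other regions of this run with a strength over 10.

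The run at 11742987 to 11762191 had 7 regions in 19.2 kb, with 24.7% of the bases covered and a median gap of 2200 bp. Replicate 1 held its 3 strongest members. These were at 11748993 to 11750366 (q = 9.41e-21, and 4.82e-08 in replicate 1), 11759203 to 11759595 (q = 2.22e-17, and 8.77e-11 in replicate 1) and 11746549 to 11747374 (q = 2.50e-13, and 3.20e-07 in replicate 1). The order of the first 2 was reversed in replicate 1. The other 4 had strengths from 4.64 to 7.60 and were in replicate 2 alone.

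**Figure D5:**
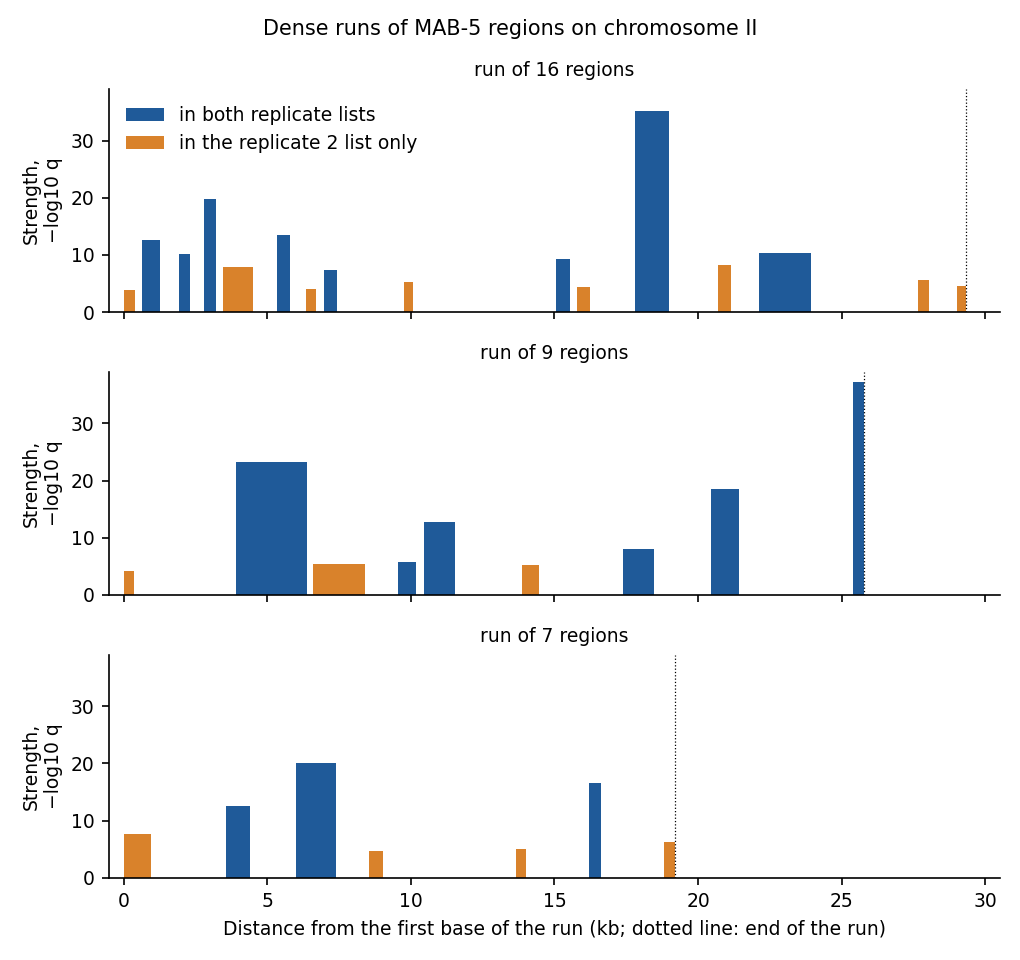
The 3 dense runs of chromosome II, each bar a combined region drawn to scale by distance from the first base of the run in kb (horizontal axis) and by strength, −log10 of the q value (vertical axis). Blue bars were in both replicate lists and orange bars in the replicate 2 list only, and all orange bars are at or under a strength of 8.31.

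On chromosome II regions inside the runs were found in both replicate lists more often than regions outside them. Of the 32 inside 17 were in both, or 53.1% (34.7 to 70.9%), against 97 of 315 outside, or 30.8% (25.7 to 36.2%). The difference was 22.3 percentage points (Fisher exact test, two-sided, p = 0.0165). The 32 regions came from only 3 runs, with 8 of 16, 6 of 9 and 3 of 7 in both lists. Runs of the other chromosomes ranged from 1 of 6, on III, to 6 of 7, on IV. Inside and outside were not compared there, so the difference is not shown to be particular to chromosome II. Members of a run are not independent, so the test overstates its precision. Regions inside also had higher medians of strength and width, a median strength of 7.98 against 6.55 outside and a median width of 462 against 398 bp, and the part of strength in the difference was not tested. With sharing defined by region centres within 200 bp the difference was 13.6 percentage points (Fisher exact p = 0.160), and without the largest run it was 25.5 percentage points (Fisher exact p = 0.0511). On the strongest 50% of the combined list, which left 6 regions inside runs, it was 23.2 percentage points (Fisher exact p = 0.406).

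The widest regions differed in strength and in replicate support. Of the 6 regions of at least 2000 bp, 4 were in both lists, and their strengths ran from 7.38 at 9283581 to 9285848 to 30.4 at 8418786 to 8421546. A region of 2394 bp at 11634017 to 11636410 had q = 3.89e-24 and 1.65e-07 in replicate 1. The 2 missing from replicate 1 were the widest of all and a region of 2498 bp at 8744088 to 8746585 (q = 5.47e-11). Of the 30 regions of at least 1000 bp 17 were in both lists (56.7%), against 32.9% of all 347 regions of the chromosome. The part of strength in this difference was not tested. At the other end 5 regions were under 200 bp, none of them in both lists, the narrowest being 30 bp at 13545380 to 13545409 (q = 2.00e-05).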

How the data were processed

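ChIP-seq of GFP-tagged MAB-5 gave 1 list of regions for each of 2 ChIP samples and 1 combined list, and the 2 input samples entered no comparison. Groups and replicate numbers come from the sample titles. Each deposited entry held a q-value given by the authors. The source column names PeakSeq and the coordinates are those of WormBase WS180, per the file headers. The aligner, the caller's settings and the making of the combined list were not given in the sources used here. Depth per sample is unknown, and intervals cover counting error only. Columns of other samples numbered 0.

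From each q-value its −log10 was taken as the strength. Overlapping entries of a replicate list were joined into distinct regions with the smallest q-value kept. Entries overlapping by at least 1 bp counted as shared. A dense run was at least 5 regions with gaps of at most 5000 bp. Shares were compared by two-sided Fisher exact tests, chromosome II against the rest, with Benjamini-Hochberg adjustment over 6 chromosomes, and the tests of the chromosome middle and of regions inside against outside runs stood alone. The overlap, run and test code was tested on simulated data. Chromosome II, the limits and the tests were chosen with earlier results of these data known. The regions named are the 10 strongest, the dense runs with their leading members, those missing from a replicate list and the widest and narrowest. Others were chosen after their values were seen. Alternatives were other overlap rules, gap limits, run sizes and widths of the middle, the 50% of a list with the smallest q-values, single lists, entries as deposited, and leaving out 1 run or region. No genome or annotation of WS180 was used here. Tests used scipy 1.17.1, tables pandas 2.3.3 and numpy 2.4.6, and figures matplotlib 3.10.9, all under Python 3.11.15.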

Additional observations from a re-analysis of the deposited data

How the results depend on the processing

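Differences below are in percentage points, chromosome II minus the rest unless stated. The share of regions in both replicate lists kept its sign and stayed without a call in the 3 alternatives run. The share of replicate 2 regions found in replicate 1 turned to -5.24 on the strongest 50% of entries of both lists (Fisher exact test, adjusted p = 0.396), and the share of replicate 1 regions found in replicate 2 was 92.3% with a reciprocal overlap of 50%. The share of short gaps stayed higher and without a call in all 6 alternatives. The excess of regions in dense runs was 1.46 on the strongest 50% of the combined list (Fisher exact test, adjusted p = 0.252), 3.43 among regions in both lists (adjusted p = 0.05002) and 1.75 without the largest run of chromosome II. It ran from 2.25 in replicate 1 alone (exact test, adjusted p = 0.212) to 6.47 in replicate 2 alone (adjusted p = 4.10e-06). The call held with gaps of at most 2000 bp, at 2.96 (Fisher exact test, adjusted p = 0.000528), with gaps of at most 10000 bp, at 6.86 (adjusted p = 0.000256), and with runs of at least 4 regions, at 4.06 (adjusted p = 0.0274). At 2000 bp both runs of chromosome II lay inside the run of 16. That setting therefore rests on 1 place and cannot show an excess beyond it. Dense runs on chromosome II numbered 1 with the stricter list, 1 among regions in both lists, 5 with gaps of at most 10000 bp, 5 with runs of at least 4 regions, and 1 to 3 in single replicate lists. The excess in the chromosome middle over the other autosomes passed the threshold among regions in both lists, at 10.5 (Fisher exact p = 0.0451), and for the middle 40%, at 6.10 (p = 0.0430). It ran from 2.39 to 10.1 in single replicate lists, with an exact p of 0.0480 in replicate 1 alone. The excess in both lists inside runs was 13.6 with region centres within 200 bp (Fisher exact p = 0.160), 23.2 with the stricter list (p = 0.406) and 25.5 without the largest run. Median strength and width were 9.95 and 450 bp in the stricter list, 13.05 and 473 bp among regions in both lists, and 5.77 to 6.71 and 395 to 403 bp in single replicate lists. Pearson's r of paired strengths was 0.434 over 47 pairs of entries as deposited. These pairs left out every region with 2 entries in a list, among them all of the 10 strongest, so the regions compared were others. Over 11 pairs whose joined replicate 2 region lacked the exact coordinates of a combined region r was 0.983. These 11 were not outside the combined list. They included 5844547 to 5845235, with a strength of 57.4, whose stronger entry was the strongest combined region of the chromosome. Without the region stronger in replicate 1 r was 0.929. The causes were not tested, apart from the runs and regions left out by construction. No paired analysis was possible because the replicate numbers pair each ChIP sample with an input sample, and no input list was analysed here. Unknown depth limits every comparison of replicate 1 with replicate 2, since a short list can come from few reads.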
